A study of Homo sapiens with 32 samples.

Results

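The SKOV3 control peak lists were set against the peak lists labelled OVCAR8 with METTL3 knockdown, a comparison in which line and condition change together. SKOV3 and OVCAR8 are human ovarian cancer cell lines. The series maps N6-methyladenosine (m6A) on chromatin-associated RNA by MeRIP-seq, which sequences the fragments that an antibody against m6A recovers. Each group holds 2 MeRIP libraries, labelled with genotype WT and a control short hairpin RNA (SKOV3) or with a METTL3 hairpin (OVCAR8), and each library has 1 deposited peak list, so that 4 of the 12 deposited lists were compared. No treatment, time or clone is given, and nothing says that the replicates were separate cultures, so the spread behind each p-value may be a technical one. A region is a set of merged peaks on one strand, found in both lists of a group, on chromosomes 1 to 22 and X. The SKOV3 control lists gave 25545 regions and the OVCAR8-labelled knockdown lists 13463. A control region was called lost where neither knockdown list had a peak overlapping it by 1 base, and a knockdown region was called gained where neither control list did.

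METTL3 is the catalytic subunit of the complex that writes m6A on nascent RNA, together with METTL14, WTAP, VIRMA, ZC3H13 and RBM15. The mark is read by YTH-domain and IGF2BP proteins and removed by FTO and ALKBH5. On chromatin, m6A lies on nascent transcripts, including introns, as well as on long non-coding and repeat-derived RNA. A peak requires both a transcript and its methylation, so a missing peak can stand for less m6A, less of the transcript or fewer reads. These cannot be told apart from peak lists, and neither can the line label and the knockdown label, which change together in this comparison.

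The labels did not match the sharing of peaks, and this comparison was picked because these lists share most of theirs. Over the 8 ovarian lists, 653 genes had a peak in both SKOV3 control and both OVCAR8-labelled knockdown lists and none in the 4 others, and 997 genes had the reverse pattern. By contrast, 80 genes had peaks only in the SKOV3-labelled lists of both conditions and 13 only in the OVCAR8-labelled lists of both conditions. Groups were kept as labelled, and whether the 4 lists come from 1 line was not tested. The ovarian and Muellerian markers gave little to check the labels with, since 2 of 12 had a peak in the 4 lists. These were BCAM, with 2 and 4 control and 2 and 2 knockdown peaks, and PAX8, a transcription factor of the Muellerian lineage, with 2 and 2 against 0 and 0. Their summed peaks were 4 to 6 in the control and 2 in the knockdown lists. Of 13 intestinal markers 1 had peaks, and of 13 fibroblast, endothelial and blood cell markers 2 did, among them PECAM1 (1 and 1 against 0 and 0). The part of other cell types in the results was not tested. METTL3 itself carried 1 and 3 control peaks and 1 and 1 knockdown peaks, which do not measure its level, so the knockdown cannot be checked from these lists.

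Gene starts show the 3 outcomes side by side. The promoter windows below, from RefSeq (GRCh38.p14, the coordinates of hg38), run from 250 bases before to 50 bases after a gene's start, 5′ to 3′ on the gene's strand. They hold the strongest kept region, the 2 strongest lost and the 2 strongest gained regions that touch a window among those considered for display, and capitals mark the bases under the region. FMN2, a formin that nucleates actin filaments, has a kept region (chr1:240091870-240094094, plus strand). DIAPH2, another formin, and LINC-PINT, a p53-induced long non-coding RNA, have lost regions (chrX:96684867-96685168, plus, and chr7:130912109-130913301, minus). The LINC-PINT window (chr7:130913261-130913560) lies inside the gene, which spans 130877562 to 131109925 on the minus strand, and not at its outer 5′ end. SND1, a Tudor-domain nuclease, and IGF1R, the receptor for insulin-like growth factor 1, have windows touched by gained regions (chr7:127652139-127652330 and chr15:98648484-98648662, both plus). The IGF1R region was not counted for that gene, which had 2 and 2 control and 1 and 2 knockdown peaks. Of its 2 counted control regions 1 was lost, and 0 of its counted knockdown regions were gained.
FMN2: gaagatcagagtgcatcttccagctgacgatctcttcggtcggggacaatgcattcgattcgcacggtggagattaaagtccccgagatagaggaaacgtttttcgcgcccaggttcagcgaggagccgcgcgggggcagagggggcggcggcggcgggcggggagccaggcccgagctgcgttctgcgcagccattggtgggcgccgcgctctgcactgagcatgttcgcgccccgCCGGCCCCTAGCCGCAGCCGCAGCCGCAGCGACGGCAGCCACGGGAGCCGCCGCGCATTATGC
DIAPH2: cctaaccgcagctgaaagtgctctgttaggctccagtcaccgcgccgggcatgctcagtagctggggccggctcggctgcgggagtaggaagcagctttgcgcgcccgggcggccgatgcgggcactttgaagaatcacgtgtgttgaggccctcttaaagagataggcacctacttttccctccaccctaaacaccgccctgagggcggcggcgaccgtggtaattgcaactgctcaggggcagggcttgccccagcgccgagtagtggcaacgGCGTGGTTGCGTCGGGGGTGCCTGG
LINC-PINT: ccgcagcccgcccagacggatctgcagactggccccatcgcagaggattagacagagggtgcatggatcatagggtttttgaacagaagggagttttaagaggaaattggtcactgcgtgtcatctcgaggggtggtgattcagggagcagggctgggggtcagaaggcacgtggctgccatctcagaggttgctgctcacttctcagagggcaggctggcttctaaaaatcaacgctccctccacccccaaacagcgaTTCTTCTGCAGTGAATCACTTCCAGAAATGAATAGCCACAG
SND1: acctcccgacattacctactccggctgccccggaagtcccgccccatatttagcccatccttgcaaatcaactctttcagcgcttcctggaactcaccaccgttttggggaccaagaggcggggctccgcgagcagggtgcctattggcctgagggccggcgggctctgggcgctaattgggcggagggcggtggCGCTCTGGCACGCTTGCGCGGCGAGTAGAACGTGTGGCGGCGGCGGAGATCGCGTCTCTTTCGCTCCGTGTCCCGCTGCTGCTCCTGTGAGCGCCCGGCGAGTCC
IGF1R: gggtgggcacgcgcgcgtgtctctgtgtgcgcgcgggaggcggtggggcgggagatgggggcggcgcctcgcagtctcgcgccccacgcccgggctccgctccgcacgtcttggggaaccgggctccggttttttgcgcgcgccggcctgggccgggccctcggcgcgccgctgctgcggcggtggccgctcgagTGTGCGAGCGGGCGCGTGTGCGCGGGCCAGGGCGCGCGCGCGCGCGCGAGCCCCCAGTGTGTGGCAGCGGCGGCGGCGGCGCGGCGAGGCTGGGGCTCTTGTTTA
The letters GGACT, a common form of the m6A consensus, were searched on both strands (AGTCC on the other). None lies on the gene's strand in these 5 windows, and the FMN2 and SND1 windows hold 1 and 2 copies on the other strand. Of all 34961 windows, 25.3% hold GGACT on the gene's strand and 44.1% on either strand. Among windows with a kept region the share was 29.0% (278 of 958) on the gene's strand, with a lost region 32% (72 of 225) and with a gained region 5.88% (1 of 17). In these 5 windows the region covers 25 to 105 of the 300 bases. It covers all 300 in the window of PFKP, which has a kept region and is not shown. The shares thus describe whole windows and not the bases under peaks. Sequence under the other regions was not analysed here.

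The knockdown-labelled lists were shorter. The SKOV3 control lists held 28918 and 29102 peaks (29010 ± 130, SD, n = 2) and the OVCAR8-labelled knockdown lists 15484 and 15744 (15614 ± 184, SD, n = 2), 46.2% fewer. The groups do not overlap, and the distance between them is many times the spread within them. The bases covered fell further, by 52.2%. A two-sided exact permutation test of log2 peak number gave p = 0.333, the smallest p that 2 lists against 2 allow. Depth differed in the same direction. The genome-wide background of the caller, read from the deposited fold and p values, was 13.9 and 14.7 reads on the forward strand of the control lists and 11.9 and 12.6 in the knockdown lists, 0.863 times the control value over both strands. The median summit held 84 and 87 reads in the control and 77 and 79 in the knockdown lists. The part of depth in the loss was not tested.

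Of the 25545 control regions, 11318 (44.3%) were lost and 14227 kept, and of the 13463 knockdown regions, 261 (1.94%) were gained. Of the single lists' peaks, 48.8% and 49.6% in the control lists had no knockdown peak, and 2.87% and 3.24% in the knockdown lists had no control peak. Replicates of a group missed 8.73% to 13.0% of each other's peaks. As deposited, nearly all knockdown peaks thus had a counterpart in the longer control lists. With each list cut to its 15484 strongest peaks, 21.3% of control regions were lost and 12.2% of knockdown regions gained, so both shares changed with list length. No test was made of these shares, since the comparison was picked because its lists share peaks.

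Lost regions were the narrower and weaker ones. Their median width was 278 bases against 534 for kept regions, and their median summit held 69 and 72 reads in the control lists against 117 and 123. Loss fell at each step of peak strength, from 83.4% in the weakest 10% of control regions by −log10 p to 52.8% in the fifth class of 10 and 4.23% in the strongest 10% (108 of 2555). The 2 control lists gave the same order, from 86.2% and 87.2% to 4.22% and 4.47%. By width, loss went from 74.9% of regions of up to 200 bases to 1.29% of those over 2000 bases. An overlap of 1 base is met more easily by a wide region, and loss by width was not examined under a stricter overlap. Of lost regions with a read value, 31.8% (3595 of 11293) had more summit reads in both control lists than the median knockdown peak, which held 78. This number lies below the control medians of 84 and 87, and the reads were not adjusted for the lower background of the knockdown lists.

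**Figure D1:**
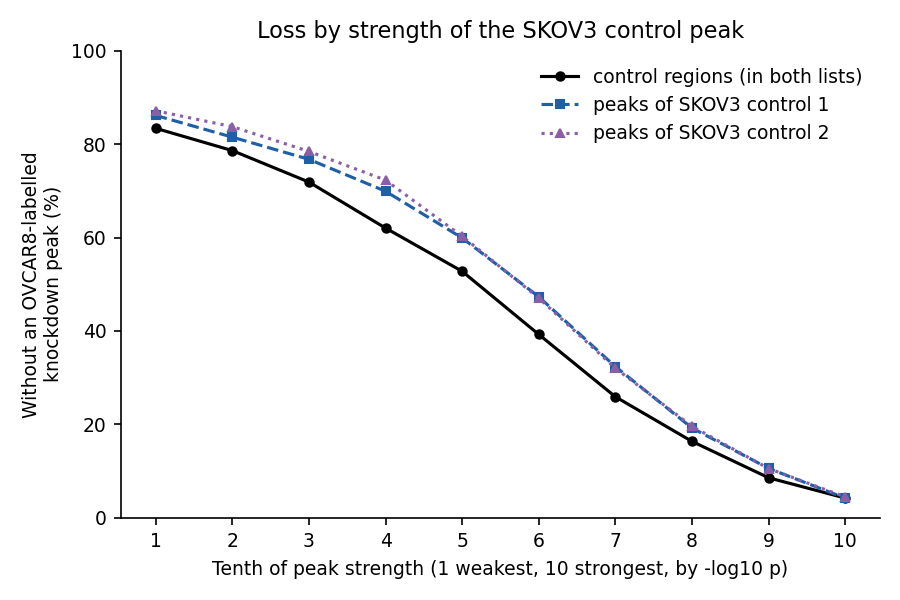
Percent of SKOV3 control regions, and of the peaks of each SKOV3 control list, that had no overlapping peak in either OVCAR8-labelled knockdown list (y axis), in 10 classes of equal size by peak strength, from weakest to strongest (x axis). Loss falls from 83.4% to 4.23% of regions, and both single lists have the same order of classes.

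Loss was higher far from the start of a gene. Of sense regions in 1 gene, those with their midpoint within 1000 bases of its start were lost in 27.0% of cases (356 of 1320), and the share rose at each step of distance to 58.2% (710 of 1221) beyond 200000 bases. The median −log10 p of these classes lay between 34.2 and 39.7 in the first control list, and among regions of middle strength the shares ran from 25.4% (67 of 264) to 61.0% (158 of 259). Of the 1078 control regions that touch a promoter window, 19.4% were lost, against 45.4% of those elsewhere. Within genes, loss was 36.5% in the first 10% of the gene body, 51.2% in the fourth of 10 equal parts and 37.4% in the last. Regions in long non-coding RNA genes were lost in 57.4% of cases and those outside genes in 58.0%, against 42.9% in protein-coding genes. The median −log10 p was lower in the first 2 of these classes (34.9 and 36.7; 33.0 and 33.3) than in protein-coding genes (37.7 and 39.1). Antisense regions were lost in 52.1% of cases and sense regions in 43.3%. The antisense regions were also weaker, with a median −log10 p of 31.1 and 31.2 against 37.8 and 39.4. Between chromosomes loss ranged from 31.5% (chromosome 16) and 33.1% (chromosome 19) to 50.8% (chromosome 4) and 52.1% (chromosome X). Chromosome X had the lowest median −log10 p (28.8 and 29.9), whereas chromosome 4 (38.5 and 39.9) lay above chromosome 16 (36.5 and 37.9).

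Kept regions are merged control peaks, so control peaks cover nearly all of their bases by construction (94.8% and 96.1%), and knockdown peaks could hardly cover more. The knockdown lists covered 60.95% and 62.8% of these bases. The median kept region had 499 and 510 bases under control peaks and 328 and 330 under knockdown peaks. Over whole lists, which were not defined by the control, the median peak was 318 and 323 bases wide in the control and 299 and 305 in the knockdown lists. In 819 of the 14227 kept regions each knockdown list had more peaks than each control list, a count that the definition of the regions favours as well.

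The strongest lost regions came from few genes. The first was in PLCB4, a phospholipase C acting downstream of G-protein-coupled receptors (chr20:9107166-9109138, plus strand), with a −log10 p of 616 and 627 and a fold of 35.6 and 34.7 in the control lists, both the authors' values. The next were in the long non-coding RNA LOC124900404 (chr1:98107858-98108690; 435 and 437) and in 3 places of KCNQ5, which encodes a voltage-gated potassium channel subunit (chr6:72630862-72631800, chr6:72732040-72734066 and chr6:72638758-72640019, 2 of them also within KCNQ5-IT1; 374.5 to 433). The sixth lay outside genes (chr4:182817310-182819372; 373 and 390). The same genes also held some of the strongest kept regions, at chr1:98205197-98206028 in LOC124900404 (686 and 745) and chr6:72655125-72656338 in KCNQ5 (682 and 697). A fold or p of a list places a peak within that list only.

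Peaks per gene were fitted with limma on log2(peaks + 1), but variances, SE and p-values came from a replacement rule given with the processing. Every adjusted p printed here uses that rule unless eBayes is named. In limma's own eBayes fit, the adjusted p was 0.0047 for LINC-PINT, 0.00034 for INPP4B and 3.8e-06 for FASN. Of 3034 genes with at least 8 peaks over the 4 lists, 1142 (37.6%) had fewer peaks in the knockdown lists and 30 (0.989%) had more, at an adjusted p under 0.05. Without adjustment, 1451 and 55 passed. The variance rule behind these counts was changed after calls had been seen: limma's eBayes fit as first designed failed its check, as given with the processing. That fit gave 1062 genes with fewer peaks and 73 with more, and a first correction, also discarded, gave 1450 and 55. Some genes named below with fewer peaks did not pass in the eBayes fit. Among them were BRCA2, ZC3H13, POLQ, SETD2, BRD2, CREBBP, SMARCA4, EPHA2, ZEB2, FOSL2 and MIR31HG. Their eBayes adjusted p ran from 0.052 (SMARCA4) to 0.10 (BRD2). The counts changed with the treatment of list length. As deposited, the median log2 difference of all genes tested was −0.50. Scaled to the gene-assigned peaks of each list, the median was 0.38, with 289 genes with fewer peaks and 1096 with more. Scaling raised every gene by the same 0.88, so it could not change the order of genes or of list medians. A list median that turned positive when scaled did so by that shift alone. With each list cut to its 15484 strongest peaks, the median was 0, with 184 and 147 of 2169 genes. Without SKOV3 control replicate 1 or 2, 652 or 666 genes with fewer peaks passed. Without SKOV3 control replicate 2, 18 genes with more peaks did, and without OVCAR8-labelled knockdown replicate 2, 20. Peak numbers did not overlap between groups in 1795 genes with lower knockdown lists (59.2%) and 126 with higher ones (4.15%). Measured as bases covered, 2061 genes (67.9%) fell and 12 (0.396%) rose.

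**Figure D2:**
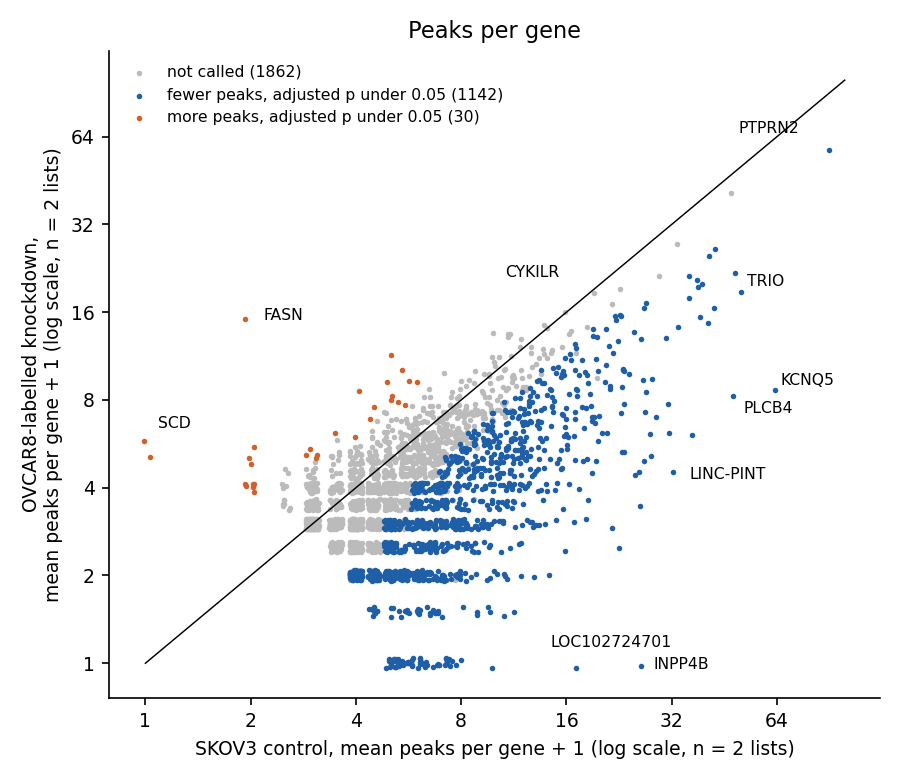
Mean peaks per gene plus 1 in the 2 SKOV3 control lists (x axis, log scale) and the 2 OVCAR8-labelled knockdown lists (y axis, log scale) for the 3034 genes tested, with points spread slightly at random for sight and the line of equality drawn. Most genes lie below the line, INPP4B and LOC102724701 have no knockdown peak, and FASN and SCD lie far above the line.

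KCNQ5 lost most peaks. It (chromosome 6, 72622064 to 73198853) had 60 and 60 control peaks and 8 and 8 knockdown peaks, a log2 difference of −2.76 ± 0.12 (SE; limma adjusted p = 9.7e-07). Its 54 control regions lost 48. PLCB4 (chromosome 20, 9068678 to 9480808) had 47 and 47 against 7 and 8, and the non-coding LOC124900404 had 36 and 37 against 5 and 5. In all 3 genes the 2 groups lie far apart, and none had a peak in OVCAR8 control or SKOV3-labelled knockdown lists.

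LINC-PINT (chromosome 7, 130877562 to 131109925) had 32 and 33 control and 3 and 4 knockdown peaks (log2 −2.91 ± 0.16 SE, limma adjusted p = 2.9e-06), and 28 of its 31 regions were lost. It differed from the genes above in having 15 and 17 peaks in OVCAR8 control and 14 and 12 in SKOV3-labelled knockdown. TRIO, a guanine nucleotide exchange factor, had 46 and 50 against 18 and 18. PTPRN2, a receptor-type phosphatase-like protein of secretory granules, had the most peaks of the genes named, 88 and 87 against 59 and 58 (log2 −0.57 ± 0.12 SE, limma adjusted p = 0.0044). Scaled, the PTPRN2 difference was 0.30 (adjusted p = 0.07), so its direction changed with scaling.

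The other genes with most peaks lost were TRAPPC9 (41 and 43 against 14 and 16), CDH4, a cadherin (45 and 49 against 20 and 23), SPIDR, a scaffold of recombination repair (37 and 41 against 15 and 12), ASAP1, a GTPase-activating protein for Arf (30 and 29 against 5 and 5) and GSE1 (37 and 41 against 14 and 15). All had lists that did not overlap. CDH4 did not pass when scaled (log2 −0.22, adjusted p = 0.17), and with equal list lengths its difference was 0.28 (adjusted p = 0.15). GSE1 did not pass with equal list lengths (log2 −0.37, adjusted p = 0.073). These genes and the 6 above, with INPP4B, are the 12 with most peaks lost, and hold 2.87% of all lost regions (325). The loss was thus spread over many genes: 365 of 435 tested genes with 8 or more control regions lost between 20% and 80% of them.

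2 of those 435 genes lost every region. INPP4B, an inositol polyphosphate 4-phosphatase of the PI3K pathway (chromosome 4, 142023160 to 142846535), had 24 and 27 control peaks and none in either knockdown list (log2 of peaks + 1, −4.73 ± 0.20 SE, limma adjusted p = 9.7e-07), and all 21 regions were lost. The long non-coding RNA LOC102724701 had 16 and 15 peaks and then none, with all 14 regions lost, yet 6 to 10 in each of the 4 other ovarian lists. Smaller genes that lost all regions included CENPE, the kinetochore motor (9 and 8 against 0 and 0). Others, also against 0 and 0, were SLC25A40 (6 and 7), DNMT1, the maintenance DNA methyltransferase (7 and 6), BMAL2 (7 and 6), GTF2F2 (6 and 6) and LINC02802 (6 and 8). GPC6, a glypican, went from 21 and 22 peaks to 1 and 2. TSPAN5, which also lost all of its 6 regions, had 8 and 6 against 0 and 0. DIAPH2 had 9 and 11 against 1 and 0, and LOC105370461 11 and 10 against 1 and 0. In the whole of the lists, 1656 of 7126 genes with a control region had no knockdown peak.

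**Figure D3:**
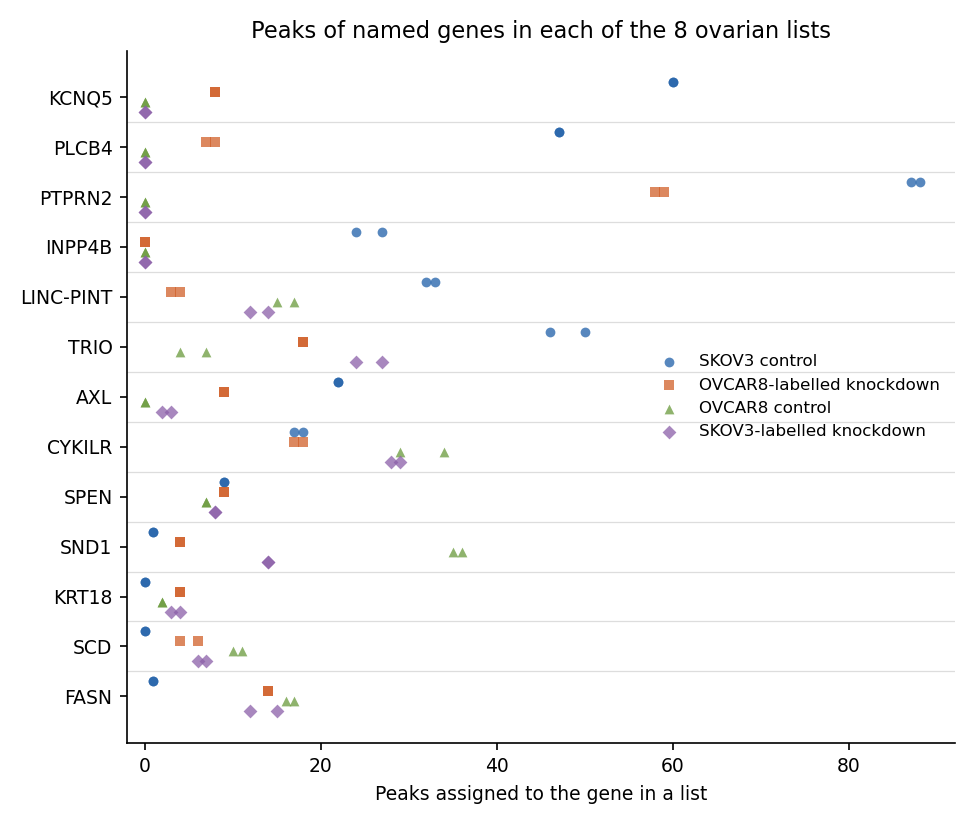
Peaks assigned to each of 13 genes (rows) in each of the 8 ovarian lists (x axis, peaks per list), 2 points per group. KCNQ5, PLCB4 and PTPRN2 have peaks only in SKOV3 control and OVCAR8-labelled knockdown lists, whereas FASN, SCD and SND1 are lowest in SKOV3 control.

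8 of those 435 genes kept every region. SPEN, a transcriptional corepressor, had 9 peaks in each of the 4 lists, and all 9 regions were kept. CYKILR, a long non-coding RNA, had 17 and 18 control and 18 and 17 knockdown peaks, with 14 regions kept. The others were SH3PXD2A (12 and 9 against 8 and 11), the translation elongation factor EEF2 (9 and 9 against 9 and 10), MTCL2 (9 and 8 against 9 and 9), the mechanosensitive channel PIEZO1 (10 and 8 against 11 and 14), PRR12 (8 and 10 against 10 and 9) and TNRC18 (9 and 9 against 10 and 10). None passed the test in limma, with adjusted p from 0.14 (PIEZO1) to 1. Scaled, 7 of the 8 had more peaks, all but SH3PXD2A. ERBB2, a receptor tyrosine kinase, had 1 peak in each list.

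FASN and SCD, enzymes of fatty acid synthesis and desaturation, led the genes with more peaks. FASN (chromosome 17, 82078338 to 82098236), had 1 and 1 control peaks and 14 and 14 knockdown peaks, with 10 gained regions (log2 2.91 ± 0.20 SE, limma adjusted p = 9e-06). SCD (chromosome 10, 100347233 to 100364826), had 0 and 0 against 6 and 4, with 4 gained regions (log2 2.57 ± 0.30 SE, adjusted p = 0.00013). Both genes also covered more bases: FASN 228 and 205 against 4241 and 3843, and SCD 0 and 0 against 2095 and 1673. FASN had 17 and 16 peaks in OVCAR8 control and 15 and 12 in SKOV3-labelled knockdown, and SCD 10 and 11 and 6 and 7.

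KRT18, a keratin of simple epithelia, had 0 and 0 against 4 and 4 peaks (log2 2.32 ± 0.31 SE, adjusted p = 0.00029), all 4 of them gained regions, at chr12:52950698-52950892 to chr12:52952631-52952881. SND1 had 1 and 1 against 4 and 4, of which the gained region at its start, shown above, is second by −log10 p of the 261 gained (213 and 220 summit reads). It had 35 and 36 peaks in OVCAR8 control and 14 and 14 in SKOV3-labelled knockdown. HSPA5, the chaperone of the endoplasmic reticulum, had 1 and 1 against 3 and 3. These 5 genes were the only ones of the 30 that also covered more bases at an adjusted p under 0.05 (0.396% of genes did).

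Of the other 25 genes with more peaks, 21 covered fewer bases and 4 passed in neither direction. SEPTIN7P14 (1 and 1 against 4 and 5 peaks), ZNF430 (1 and 1 against 4 and 4), LINC00342 (4 and 4 against 9 and 12), ZNF629 (3 and 3 against 7 and 8), TAF7 and THOC1 (each 1 and 1 against 3 and 3) had bases-covered log2 differences of −1.62, −0.99, −0.37, −0.41, −0.64 and −0.52. With equal list lengths TAF7 and THOC1 did not pass (adjusted p = 0.0504 for each). Zinc-finger genes named ZNF were 7 of the 30 and 176 of the genes tested. ONECUT2 (1 and 1 against 3 and 3) did not pass on bases (adjusted p = 0.12).

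The 261 gained regions were narrow (median 194 bases) with 61 and 66 summit reads, and 192 lay in 155 genes. 22 genes had more than 1. Beside the genes above these included ACTG1, cytoplasmic actin (0 and 0 against 4 and 3 peaks), HSP90AB1, a cytosolic chaperone (0 and 0 against 4 and 3), FLNA, an actin crosslinker (11 and 10 against 13 and 10) and NPM1 (0 and 0 against 2 and 2), named here after their values were seen. The strongest were at LOC105378179 and RN7SL2, an RNA of the signal recognition particle (chr14:49862441-49862830), at SND1, at SCD (chr10:100347940-100348209), outside genes (chr21:8458093-8458596) and at RPPH1, the RNA of RNase P (chr14:20343145-20343478). HUWE1, a ubiquitin ligase, held 1 (chrX:53561920-53562329), and RPL19, a ribosomal protein, 2. By class, 1.83% of knockdown regions in protein-coding genes were gained (180 of 9843), 0.41% in long non-coding RNA genes (2 of 488) and 4.48% outside genes (35 of 781).

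Most gained regions had a peak in the OVCAR8 control lists, 82.8% and 83.9%, above the 71.7% and 71.8% of kept knockdown regions. For the SKOV3-labelled knockdown lists the order was the reverse, 63.2% and 62.1% of gained against 73.4% and 74.2% of kept knockdown regions. In LOVO and RKO, which are colorectal cancer lines with 1 list per group, 20.7% and 24.9% of gained regions had a control peak, against 66.8% and 69.0% of kept ones. Lost regions had a peak in the OVCAR8 control lists in 24.2% and 24.4% of cases, and kept control regions in 68.9% and 69.2%. In the SKOV3-labelled knockdown lists the shares were 28.9% and 30.4% of lost and 70.4% and 71.3% of kept control regions. Among the strongest 10% of control regions, 1.85% of the 108 lost ones had a peak in each OVCAR8 control list and 75.9% and 75.7% of the 2447 kept ones. In the SKOV3-labelled knockdown lists the same 108 had a peak in 17.6% and 18.5%, and the kept ones in 81.3% in each. In the LOVO and RKO control lists the 108 had a peak in 25% and 23.1%, and the kept ones in 78.3% and 79.7%. These shares describe the lists and were not tested.

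**Figure D4:**
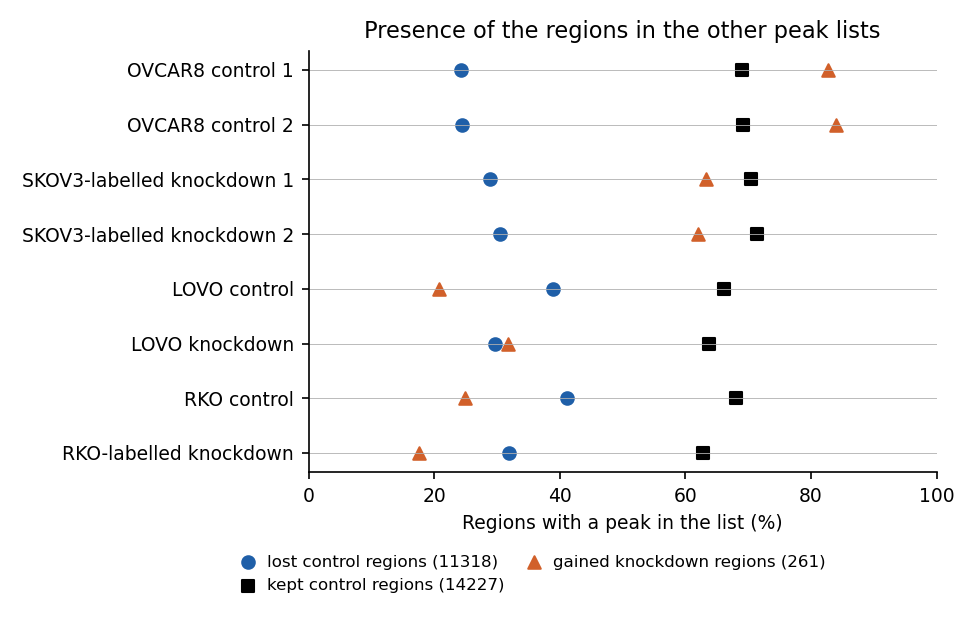
Percent of lost control, kept control and gained knockdown regions (x axis) with an overlapping same-strand peak in each of the 8 other lists (rows). Gained regions lie highest in the OVCAR8 control lists, at 82.8% and 83.9%, and lowest in the LOVO control and the RKO lists, while lost regions reach at most 41.2%.

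The m6A machinery lost peaks in some members. The counts of this and the following gene lists stand beside 37.6% of all genes with fewer peaks. Those scaled to gene-assigned peaks per list stand beside 289 with fewer and 1096 with more. Of 12 genes of the writer complex, 4 could be tested and 2 (50%) had fewer peaks: VIRMA, its scaffold (7 and 7 against 3 and 2, log2 −1.21, limma adjusted p = 0.0012), and ZC3H13 (9 and 8 against 5 and 6, log2 −0.55, adjusted p = 0.025). METTL16, a separate m6A writer, had 3 and 4 against 1 and 2, and RBM15 4 and 4 against 4 and 3. Of 15 readers and erasers 6 were tested and 3 (50%) had fewer, FTO (7 and 8 against 2 and 2, log2 −1.50, adjusted p = 0.00029), the nuclear reader YTHDC1 (6 and 6 against 3 and 3) and IGF2BP2 (13 and 11 against 1 and 1, log2 −2.70, adjusted p = 1.4e-05). PRRC2A had 10 and 8 against 6 and 7 (adjusted p = 0.081). The list medians were −0.71 and −0.61, beside −0.50 for all genes, and both turned positive when scaled (0.17 and 0.27), where all genes stood at 0.38. Scaled, no writer gene had fewer peaks and 1 had more, with VIRMA at −0.33 (adjusted p = 0.23) and ZC3H13 turned to 0.33 (adjusted p = 0.13), and with equal list lengths none of 3 passed. FTO and IGF2BP2 kept their calls in both settings, and YTHDC1 did not (0.07, adjusted p = 0.78 scaled).

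DNA repair genes are the subject of the series' title. Of 29 homologous recombination and Fanconi genes 10 were tested, and 4 (40.0%, against 37.6% of all genes) had fewer peaks. They were RAD51B (15 and 12 against 3 and 3, log2 −1.85, limma adjusted p = 4.2e-05), the helicase BRIP1 (12 and 12 against 3 and 3), BRCA2 (7 and 7 against 5 and 4, adjusted p = 0.036) and RAD54L (3 and 3 against 1 and 1). XRCC3 had 6 and 6 against 4 and 4 (adjusted p = 0.072). Of 25 break signalling and end joining genes 11 were tested and 5 (45.5%) had fewer. Among them were the kinase ATR (6 and 8 against 3 and 3), the ubiquitin ligase RNF168 (5 and 5 against 3 and 3), the polymerase POLQ (6 and 6 against 3 and 4), and, named after their values were seen, PRKDC (6 and 6 against 0 and 0) and XRCC5 (4 and 5 against 0 and 0). ATM had 6 and 6 against 4 and 5 (adjusted p = 0.17). The list medians were −0.45 and −0.35, and turned positive when scaled (0.43 and 0.52). Scaled, 1 recombination gene and 6 of these 11 stood with more peaks, and 2 in each list with fewer. BRCA2, RAD54L, ATR, RNF168 and POLQ lost their calls, and with equal list lengths none of 9 break signalling genes passed. In the eBayes fit as first designed, BRCA2 and POLQ did not pass (eBayes adjusted p = 0.077 and 0.081).

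The lists of chromatin genes differed in their counts, a difference that was not tested. None of 10 tested H3K4 methyltransferase genes passed, and 17.7% of the list's 62 control regions were lost, against 43.9% over the regions of all genes. KMT2D had 15 and 16 against 13 and 11 peaks (adjusted p = 0.066), SETD1B 12 and 13 against 11 and 10, SETD1A 9 and 8 against 7 and 5, and KMT2C 6 and 8 against 7 and 6. The list median was −0.15, and 8 of the 10 had more peaks once scaled. Of 9 tested H3K36 and H3K79 methyltransferase genes 4 (44.4%) had fewer: NSD2 (17 and 18 against 6 and 6, log2 −1.40, adjusted p = 8.2e-05), NSD3 (9 and 11 against 4 and 4), NSD1 (8 and 6 against 4 and 4) and SETD2 (10 and 8 against 6 and 6). ASH1L had 11 and 8 against 6 and 6 (adjusted p = 0.053). The list median was −0.56, and 0.31 when scaled, where NSD2 alone had fewer peaks and 3 members had more. NSD3 (log2 −0.25, adjusted p = 0.24) and SETD2 (0.37, adjusted p = 0.096) did not pass then.

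Of 12 tested acetyltransferase and BET genes 3 (25%, against 37.6% of all genes) had fewer peaks, KAT6A (12 and 11 against 6 and 6), CREBBP (9 and 8 against 5 and 6) and BRD2 (9 and 11 against 6 and 7). Of 7 SWI/SNF genes 3 (42.9%) did, among them the ATPase SMARCA4 (16 and 18 against 10 and 8), with SMARCC2 and ARID1A, and PBRM1 had 9 and 8 against 6 and 6 (adjusted p = 0.063). Of 7 polycomb genes 1 (14.3%) did, JARID2 (9 and 9 against 4 and 4), and BCOR had 4 in each list. None of 8 tested genes of LINE-1 silencing by HUSH and its partners passed, and 4 of 30 regions (13.3%) were lost. TASOR, a HUSH subunit, had 6 and 5 against 5 and 6, NCL 3 and 3 against 4 and 4, SAFB 4 and 4 against 4 and 3, and SAFB2 4 and 6 against 3 and 2. None of 3 nuclear exosome genes passed: ZFC3H1 had 6 and 5 against 4 and 4, EXOSC2 3 and 3 against 2 and 2, and EXOSC10 1 and 2 against 3 and 4. All these medians turned positive when scaled. None of the members of these 5 lists had fewer peaks then, so that every call named here was lost, and 5 acetyltransferase and BET, 2 SWI/SNF, 3 polycomb, 4 LINE-1 silencing genes and 1 exosome gene had more.

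Receptor tyrosine kinases and genes at fragile sites had the lowest list medians of the lists with 3 or more tested members. Scaling could not change this order, since it moves every gene alike. With equal list lengths the nuclear long non-coding RNAs (−0.58) and the writer complex (−0.47) lay lower. Of 6 tested kinase genes 5 (83.3%, against 37.6% of all genes) had fewer peaks (median log2 −1.18, and −0.30 scaled): AXL (22 and 22 against 9 and 9, log2 −1.20, limma adjusted p = 0.00011), FGFR1 (10 and 11 against 1 and 1, log2 −2.52, adjusted p = 2.5e-05), EPHA2 (8 and 7 against 5 and 4), EPHB2 and ROR2. EGFR had 6 and 7 in both groups. Scaled, 2 kinase genes had fewer peaks and 1 more, and with equal list lengths 1 and 1 of 4. AXL then lost its call (log2 −0.32 in each, adjusted p = 0.073 and 0.15), and EPHA2 turned to 0.25 when scaled (adjusted p = 0.28). Of 10 tested fragile-site genes 8 (80%) had fewer (median log2 −1.19, and −0.31 scaled), such as FHIT (28 and 32 against 12 and 12), DLG2 (16 and 15 against 5 and 4), EXOC4 (10 and 12 against 5 and 4) and RAD51B. Scaled, 4 of the 10 had fewer, without EXOC4 (adjusted p = 0.28), and with equal list lengths 1 of 8, RAD51B, while FHIT (adjusted p = 0.063) and DLG2 (adjusted p = 0.12) did not pass.

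Of 9 tested genes of RAS, RAF and PI3K signalling 3 (33.3%, against 37.6% of all genes) had fewer peaks, among them PIK3R1 and RPTOR, a subunit of mTORC1 (20 and 19 against 12 and 11). With equal list lengths the RPTOR difference reversed to 0.58 (adjusted p = 0.026). NF1 had 4 and 5 against 4 and 4, and TSC1 5 and 5 against 4 and 4. Of 4 TGF-beta genes SMURF2, a ubiquitin ligase, passed (14 and 13 against 2 and 2), while SKI had 8 and 6 against 5 and 5, BMPR2 4 and 6 against 5 and 5 and TGFB1 5 and 5 against 4 and 4. Of 7 AP-1 and immediate-early genes KLF6 (6 and 6 against 1 and 1) and FOSL2 (6 and 5 against 3 and 2) passed. FOSL1 had 9 and 8 against 5 and 7 and MYC 4 and 3 against 5 and 4. Of 6 cell cycle genes 1 passed, MAD1L1 of the spindle checkpoint (40 and 36 against 22 and 18), and CCND1 had 8 and 8 against 6 and 3. The medians of these 4 lists lay between −0.42 and −0.31, and turned positive when scaled (0.46 to 0.57). Their shares with fewer peaks, 16.7% to 33.3%, did not exceed that of all genes. Scaled, 1 RAS, RAF and PI3K gene had fewer peaks and 3 had more, 1 and 2 of the TGF-beta genes, 1 and 3 of the AP-1 genes, and 0 and 3 of the cell cycle genes. SMURF2 and KLF6 kept their calls when scaled, and PIK3R1, RPTOR, FOSL2 and MAD1L1 lost theirs. With equal list lengths SMURF2 passed (limma adjusted p = 0.00019) and KLF6 did not (adjusted p = 0.0504).

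Epithelial and mesenchymal genes moved both ways. Of 9 tested, KRT18 had more peaks and 4 (44.4%, against 37.6% of all genes) had fewer, among them the repressors ZEB1 (12 and 12 against 3 and 3) and ZEB2 (8 and 7 against 5 and 4), TJP1 and TGFBI. KRT7 had 8 and 6 against 7 and 6, and KRT8 4 and 3 against 5 and 5. Of 8 nuclear long non-coding RNAs 5 (62.5%) had fewer: LINC-PINT, PVT1 (16 and 16 against 8 and 8), MIR31HG (6 and 8 against 3 and 4), NEAT1, the scaffold of paraspeckles (6 and 7 against 2 and 2) and SNHG14. TUG1 had 5 and 6 against 6 and 6. Both list medians turned positive when scaled (0.30 and 0.17). Then 1 epithelial or mesenchymal gene, ZEB1, had fewer peaks and 3 had more, and ZEB1 did not pass with equal list lengths (log2 −0.29, adjusted p = 0.57). Of the long non-coding RNAs, LINC-PINT alone had fewer when scaled and 3 had more, with PVT1 at −0.04 (adjusted p = 0.82) and MIR31HG at 0.05 (adjusted p = 0.87), whereas 4 had fewer with equal list lengths.

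**Figure D5:**
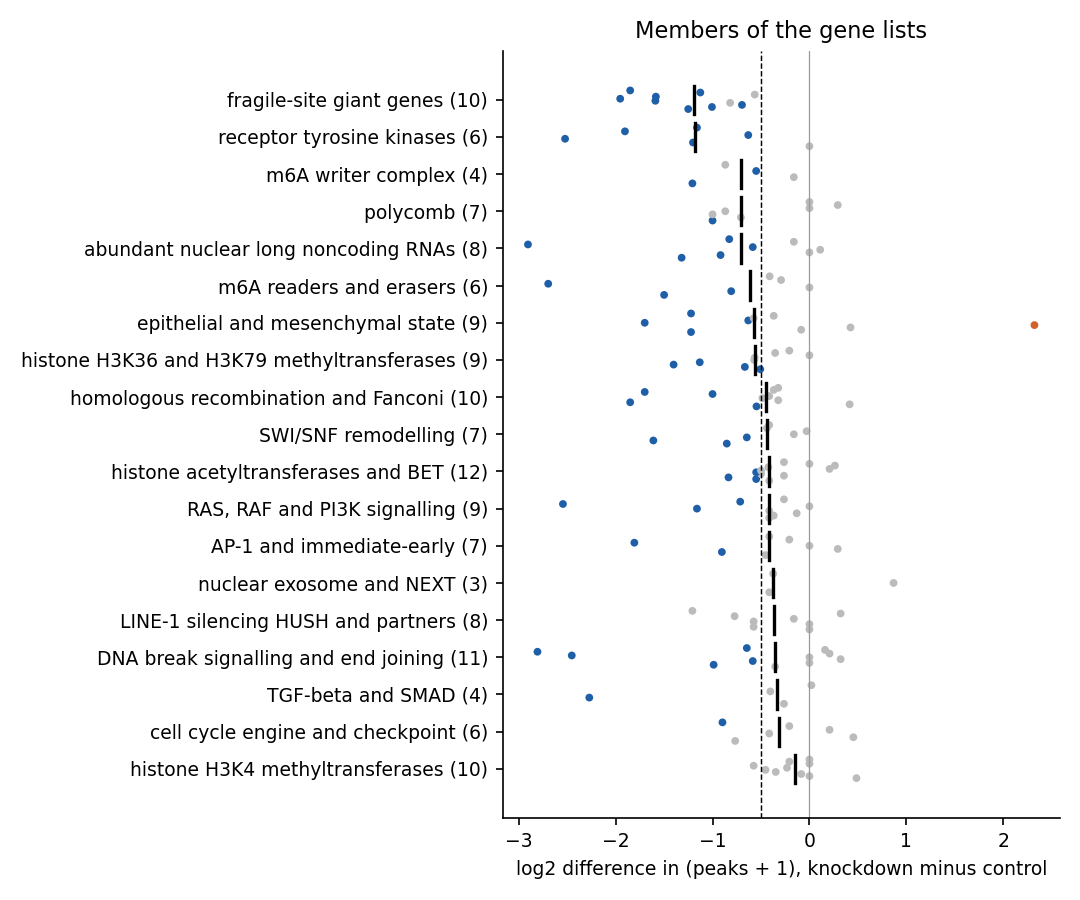
Log2 difference in peaks + 1, knockdown minus control (x axis), for each tested member (points) of 19 gene lists with 3 or more tested members (rows, number in brackets). Blue marks fewer and orange more peaks at an adjusted p under 0.05, the bar is the list median and the dashed line the median of all genes tested, −0.50.

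The comparison with the other labels exchanged, OVCAR8 control against SKOV3-labelled knockdown, shares no list with this one. It lost 14.6% of 24666 control regions and gained 8.81% of 22438 knockdown regions. By limma 169 of 3665 genes (4.61%) had fewer peaks there and 67 had more. Of the 657 genes with fewer peaks here that could be tested there, 6 also had fewer there, which is 0.913% of the first and 3.55% of the 169. The OVCAR8 control lists held 28237 and 28774 peaks and the SKOV3-labelled knockdown lists 26178 and 26865, closer in length than the lists here. The difference between the 2 comparisons was tested in one fit of the 8 lists, without scaling to list length. The part of list length in its result was not tested. This difference passed in 917 of 3247 genes (28.2%), 805 more negative and 112 more positive in the SKOV3 control comparison. One example is TRIO, with a log2 difference of −1.37 here and 2.07 there (46 and 50 against 18 and 18 peaks here, 4 and 7 against 24 and 27 there, difference −3.43, limma adjusted p = 4.2e-05).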

How the data were processed

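The 4 MeRIP peak lists compared, and 8 others used beside them, were analysed as deposited, on chromosomes 1 to 22 and X. The submitters' processing notes list MACS2 2.2.7.1, HISAT2 2.1.0, Bowtie2 2.4.2 and Trim Galore 0.6.6 with build hg38, and give them no role. The authors deposited for each ovarian peak a fold enrichment (a linear ratio) and p and q as −log10, and for LOVO and RKO a score, not used here. Summit reads were solved from fold and p, which gave whole reads in 100% of summits within 10% of 1 read (library read totals: not given in the sources used here). A peak counted for a gene (RefSeq, GRCh38.p14) if it overlapped that gene's body alone.

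Members and gene lists were chosen with earlier results of these data known. Genes were named by rule: the 12 with most peaks lost, 8 with the most negative and at most 12 with the most positive log2 difference, 8 with no and 8 with all regions lost, and up to 4 members of each list by peak number.

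limma 3.58.1 (R 4.3.3) was run on log2(peaks + 1) of genes with at least 8 peaks, with Benjamini-Hochberg adjustment over all genes tested. The design named eBayes with a variance trend. That fit was tested on simulated lists, drawn independently and without a difference in depth between lists. It called 211 of 2834 unchanged genes. It was replaced 2 times, each time after the calls on the deposited lists had been seen. The first replacement took the larger of a gene's own variance and a loess trend, with normal p-values, and was dropped because p-values of genes with many peaks were implausibly small. The second, used here, holds that trend level at high peak numbers and uses a t distribution with estimated degrees of freedom. Its power in the simulation was uneven. Of 50 genes each it called 12 with a true fold of 0.5 and 34 with a fold of 2, against 19 and 20 by eBayes. For folds of 0.25 and 4 it called 26 and 49, against 24 and 42. The results give the counts of all 3. The deviations of same-numbered replicates from their group means had a correlation of 0.008 over genes. With 2 lists per group both pairs give the same value, so it cannot exclude a shared batch. The lists were analysed as unpaired. Alternatives covered the threshold, overlap, list length, scaling, filter, pseudocount, pairing and variance. Values of a few list members are not reported here.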

Additional observations from a re-analysis of the deposited data

Results flagged for a closer look

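The difference between knockdown and control labels itself differed between this comparison and that of OVCAR8 control against SKOV3-labelled knockdown in 917 genes, by an interaction term in limma at an adjusted p under 0.05. That fit was not scaled to list length, which differed more between the groups here than there, and the part of list length was not tested. FASN stood 3.19 higher here on the log2 scale (limma adjusted p = 7.9e-06), with 1 and 1 control against 14 and 14 knockdown peaks here and 17 and 16 against 15 and 12 there. SCD stood 3.18 higher (adjusted p = 3.2e-05) and KRT18 1.75 higher (adjusted p = 0.004). In all 3 genes the SKOV3 control lists were the lowest of the 8.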

How the results depend on the processing

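The log2 difference in peak number was −0.89, and kept its direction under every alternative run, from −0.91 to −0.88 without one list and −1.07 for bases covered; the replicate block gave −0.89. The percent of control regions lost was 21.3 with lists of equal length, 55.3 where 50% of a region must be covered, 52.9 for regions of any list and 54.0 where absence from 1 list suffices (48.6 to 49.8 without one list), beside 44.3. The percent of knockdown regions gained was then 12.2, 2.45, 3.98 and 3.25 (2.59 to 3.24 without one list), beside 1.94.

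Genes with fewer peaks were 1142, and genes with more peaks 30. As first designed (eBayes variance) the counts were 1062 and 73, of which 837 and 22 were shared with those reported; the first replacement, chosen after seeing the data, gave 1450 and 55. With no filter they were 2854 and 133 of 7977, scaled 289 and 1096, with lists of equal length 184 and 147, and for bases covered, added after seeing the data, 2061 and 12. Without one list, genes with fewer peaks were 652 to 1239 and genes with more peaks 18 to 27. The replicate block gave 1180 and 32. RPTOR reversed to 0.58 with equal lengths. SEPTIN7P14, ZNF430, LINC00342, ZNF629, TAF7 and THOC1 reversed for bases covered (−1.62, −0.99, −0.37, −0.41, −0.64 and −0.52). Scaling subtracts the difference in gene-assigned peaks per list, which moves every gene by the same amount. The cause of the other shifts was not tested.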
